A study of Mus musculus with 6 samples.

Results

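The genes described here are a list of 59 cell cycle genes of the mouse, drawn up by function: replication factors of S phase, regulators of the entry into S phase, mitotic genes, the cyclin D kinases of G1 and the inhibitors of cyclin-dependent kinases (CDKs). For 57 of them, out of 19938 genes measured in all, the array had a probe set annotated to that gene alone, and where a gene had several the one with the highest mean level was taken. Cdkn1a shares its probe set with another gene and Ccnb1 had none here, so neither is reported. The levels come from 6 Affymetrix Mouse Gene 1.0 arrays of RNA from isolated epithelial cells of the small intestine at stage E18.5, shortly before birth. By their labels, 3 arrays carry a double conditional knockout (cKO) of Gata4 and Gata6, transcription factors of the gut epithelium, and 3 are controls. No source used here gives the cre driver, the deleted exons, the genotype of the controls or how many animals stand behind an array. The p-values therefore describe the spread among 6 arrays, and how much of that spread is technical is unknown.

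As background, a cell that enters the cycle from G1 uses D cyclins with CDK4 or CDK6 to phosphorylate the retinoblastoma family, which frees E2F factors to switch on cyclin E and the genes of DNA replication. The MCM helicase is then loaded on origins, unwinds the DNA in S phase, and later cyclin B with CDK1 drives mitosis, when kinases of the Polo and Aurora families build and check the spindle. In the fetal small intestine dividing epithelial cells lie mainly between the villi, and cells on the villi have left the cycle. In RNA of a whole cell preparation, fewer dividing cells and less RNA per cell cannot be told apart.

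The arrays differed in ways that touch the results below. Gata4 stood at 11.34, 11.39 and 11.51 (log2 level) on the arrays labelled cKO, against 10.95, 10.93 and 10.96 on the controls. Gata6 stood at 12.72, 12.69 and 12.72 on the arrays labelled cKO, against 12.23, 12.28 and 12.27 for controls. Both targeted transcripts were thus higher where the label says knockout. A probe set can also read exons that a deletion leaves in place, so this does not check the labels, and the direction of each change given here is only as good as they are. The 12 epithelial markers averaged 11.80 to 12.03 on the arrays labelled cKO, against 11.98 to 11.99 for controls, with no marker of any list at 0. These near means hide members that differ: by the limma test described next, Epcam, Krt8 and Krt19 were called higher and Fabp2 lower (change −2.73, adjusted p = 0.00163), 33.3% of the list against 12.9% of all genes. Epcam, Krt19 and Fabp2 are named after their values were seen. Hepatocyte and erythroid markers set cKO 2 apart: the 7 erythroid markers with a probe set, of 13 listed, averaged 7.30, 10.96 and 7.38 on cKO 1 to 3, against 9.01, 7.51 and 9.05 on controls 1 to 3, and the 11 hepatocyte markers, of 12 listed, averaged 8.91, 12.93 and 9.02 against 9.91, 8.38 and 11.27. The 10 mesenchymal markers averaged 9.45, 9.30 and 8.65 on the arrays labelled cKO, against 8.58, 8.24 and 8.40 for controls; for 7 of the 10 every array labelled cKO was higher (14.3% of all genes), for 1, Pdgfra, named after its values were seen, every one was lower (change −0.55), and none passed that test. Control 3 alone had a male pattern, with Xist at 6.18 and Eif2s3y at 9.36, so the controls do not all come from the same animal. Changes of single members are given with and without cKO 2, and calls and medians also without control 3 and cKO 2.

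Of the 57 members, 3 passed the test. It was a limma fit across all 19938 genes, with p-values adjusted by the Benjamini-Hochberg method and a threshold of 0.05. Cdk6, a G1 kinase, and Kif23, a kinesin of cell division, rose on the arrays labelled cKO, and Cdkn1c, a CDK inhibitor, fell. The other 54 members, among them all 24 S phase members and 21 of 22 mitotic members, did not pass. The share called was 5.26% of the members, against 12.9% of all genes (5.52% higher and 7.42% lower). At an unadjusted p under 0.05 there were 10 members, against 26.6% of all genes, and groups that did not overlap were found for 10 members (17.5%), against 32.6% of all genes. Without control 3 and cKO 2, Cdk6 and Cdkn1c passed and Kif23 did not, where 7.95% of all genes passed. Without cKO 2 alone, 1 member was called higher (Cdk6) and 2 lower (Cdkn1c and E2f2), against 4.81% and 6.63% of all genes. For 47 of the 54 members that did not pass, the 95% interval of the change lay within a 2-fold change in either direction, and the intervals of the other 7 reached past it. The plot of changes by gene shows S phase estimates lying mostly to the right of 0, with most of their intervals crossing it. Mitotic estimates lie closer to 0, and 3 filled points lie away from it.

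**Figure D1:**
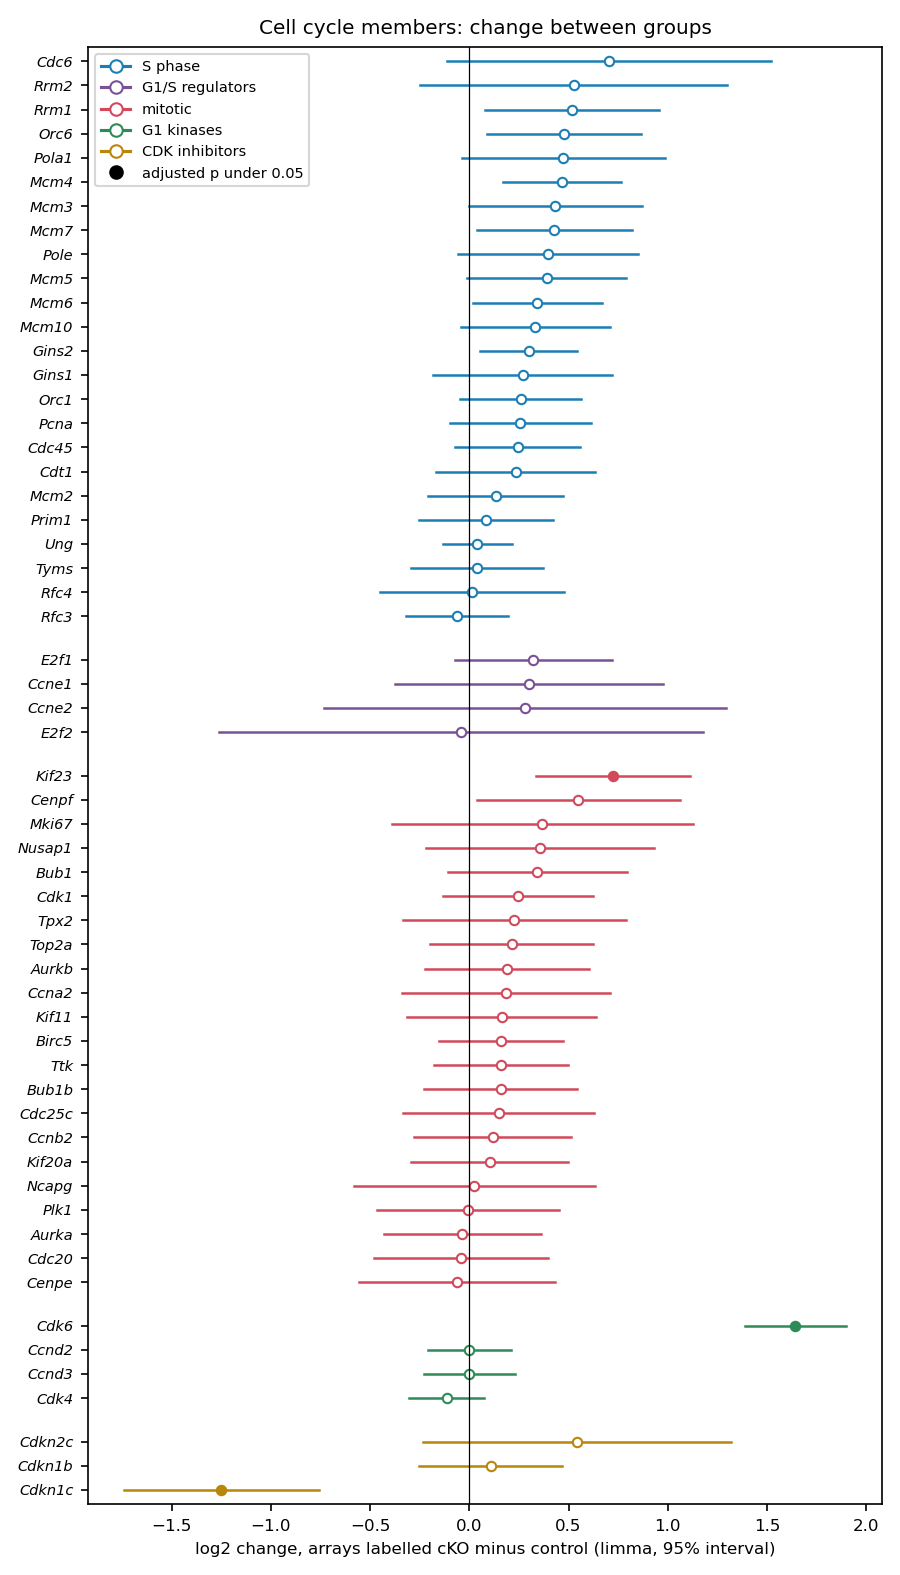
Log2 change (arrays labelled cKO minus control, horizontal axis) of the 57 members, grouped by role and coloured by group. Circles are limma estimates, lines their 95% intervals and filled circles the 3 genes with an adjusted p under 0.05, of which Cdk6 lies at 1.64, Kif23 at 0.72 and Cdkn1c at −1.25.

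Cdk6 showed the largest change of the list. CDK6 is a kinase that pairs with D cyclins and phosphorylates the retinoblastoma protein. Its level was 10.16, 10.15 and 10.25 on the arrays labelled cKO, against 8.75, 8.43 and 8.45 on the controls. The 3 arrays labelled cKO differed among themselves by less than the controls did, and the groups lay far apart. The change was 1.64 ± 0.11 (log2, SE, n = 3 in each group), a 3.12-fold rise (adjusted p = 0.000407), and it ranked 128 from the largest rise among all 19938 genes. Leaving out any 1 array gave changes of 1.59 to 1.75 (adjusted p up to 0.0038), with 1.66 without cKO 2. Without both control 3 and cKO 2 the change was 1.61 (adjusted p = 0.00531).

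The other kinase and the cyclins of the same complexes gave a different picture. Cdk4, which shares the D cyclins with CDK6, stood at 12.54, 12.53 and 12.66 on the arrays labelled cKO, against 12.67, 12.77 and 12.63 on the controls (change −0.11, 95% interval −0.30 to 0.075, adjusted p = 0.425). The groups overlapped, and without cKO 2 the change was −0.09. Ccnd2 averaged 11.65 ± 0.067 on the arrays labelled cKO and 11.65 ± 0.12 on the controls (SD, n = 3 each), and its interval ran from −0.21 to 0.21. Ccnd3 had the same mean of 11.22 in both groups, with an interval of −0.23 to 0.23. Without cKO 2 the changes of Ccnd2 and Ccnd3 were 0.022 and −0.083. These are D cyclins that activate CDK4 and CDK6. Ccnd1, the remaining D cyclin and no member of the list, rose on the arrays labelled cKO, with levels of 11.25, 10.90 and 10.96, against 10.08, 9.80 and 9.49 on the controls. Its change was 1.25 ± 0.17 (SE; 2.37-fold, adjusted p = 0.00565) and passed with each array left out in turn. Cdk6 and Ccnd1 were therefore each higher on every array labelled cKO than on any control, while Cdk4, Ccnd2 and Ccnd3 were not. The mesenchymal markers were also higher on those arrays, by means given above, and their part in the changes of Cdk6 and Ccnd1 was not tested. That the change of Cdk6 differs from that of Cdk4 was not tested.

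**Figure D2:**
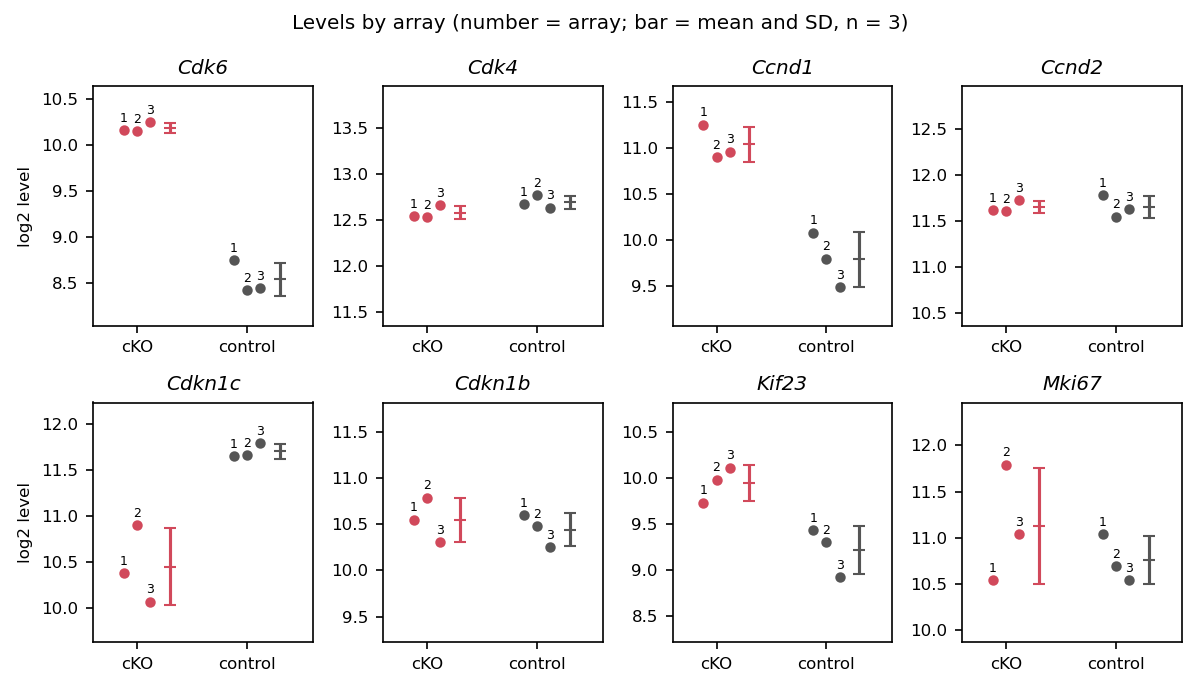
Log2 level (vertical axis, spanning 2.6 units in every panel) on the arrays labelled cKO (left) and control (right) for Cdk6, Cdk4, Ccnd1, Ccnd2, Cdkn1c, Cdkn1b, Kif23 and Mki67. Points are single arrays with their number and bars are the mean and SD of 3 arrays. Cdk6 and Ccnd1 separate upwards, Cdkn1c downwards, Kif23 more narrowly, and for Cdk4, Ccnd2, Cdkn1b and Mki67 the groups overlap.

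Among the CDK inhibitors, Cdkn1c fell on the arrays labelled cKO. Cdkn1c encodes p57, a Cip/Kip inhibitor of cyclin-CDK complexes that holds cells out of the cycle during development. Its level was 10.38, 10.90 and 10.07 on the arrays labelled cKO, against 11.65, 11.66 and 11.79 on the controls. The controls lay close together, and cKO 2 was the highest of its group but below every control. The change was −1.25 ± 0.20 (SE), 2.38-fold lower (adjusted p = 0.0108). It was −1.47 without cKO 2 (adjusted p = 0.0012) and −1.43 without both cKO 2 and control 3 (adjusted p = 0.00633), and it missed the threshold without control 3 (adjusted p = 0.0504). The mesenchymal markers were higher on the arrays labelled cKO, and their part in the result was not tested.

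The other inhibitors did not pass. Cdkn1b encodes p27, the Cip/Kip inhibitor that accumulates in quiescent cells, and its level was 10.55, 10.79 and 10.31 on the arrays labelled cKO, against 10.60, 10.48 and 10.25 on the controls (change 0.11, 95% interval −0.25 to 0.47, and −0.013 without cKO 2). Cdkn2c encodes p18, an INK4 inhibitor of CDK4 and CDK6. It stood at 7.47, 8.69 and 7.60 on the arrays labelled cKO, against 7.25, 7.28 and 7.60 on the controls, so that only cKO 2 was above every control. Its change of 0.54 (adjusted p = 0.352) was 0.16 without cKO 2, the array with the highest hepatocyte and erythroid markers, whose part was not tested.

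Kif23 was the mitotic member that passed. It encodes a kinesin of the central spindle, which cells need to divide their cytoplasm. Levels were 9.73, 9.98 and 10.11 on the arrays labelled cKO, against 9.43, 9.30 and 8.92 on the controls, and the groups did not overlap. The change was 0.72 ± 0.16 (SE; 1.65-fold, adjusted p = 0.0335). The call was lost without cKO 2 (change 0.70, adjusted p = 0.0683) and without cKO 3 (adjusted p = 0.105). It was also lost without control 2 (0.0884), without control 3 (0.074) and without both control 3 and cKO 2 (change 0.56, adjusted p = 0.119). The part of the mesenchymal markers in it was not tested either.

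The replication genes of S phase stood slightly higher in the mean of the arrays labelled cKO, and none passed the test. On cKO 1 they lay among the controls, with a mean of 9.37, against 9.43, 9.37 and 9.16 on controls 1, 2 and 3. A change above 0 was found for 23 of the 24 S phase members, against 46.7% of all genes, with a median of 0.32 and a range of −0.063 to 0.70, where the median of all genes was −0.013. At an unadjusted p under 0.05 in limma, 6 members were higher and 0 lower, where 11.5% of all genes were higher and 15.1% lower. All 3 arrays labelled cKO were above all controls for 6 of the 24 (Mcm4, Mcm7, Orc6, Cdc6, Gins2 and Rrm1), a share of 25%, against 14.3% of all genes. The array cKO 2 had the highest level of the 6 arrays for 22 of the 24, and control 3 had the lowest for 18. With cKO 2 left out the S phase median was 0.20 and 19 of 24 members were above 0. With control 3 left out it was 0.20 too, and with both left out it was 0.14 and 16 were above 0.

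By role within S phase, the 6 subunits of the MCM helicase had a median of 0.41, which was 0.25 without cKO 2 and 0.16 without control 3 and cKO 2. Mcm4 was the member nearest to the threshold. Mcm4 stood at 10.08, 10.39 and 10.18 on the arrays labelled cKO, against 9.89, 9.80 and 9.56 on the controls (change 0.47 ± 0.12, SE, adjusted p = 0.0577). The groups did not overlap, and under 6 other settings, among them quantile normalization (adjusted p = 0.0329) and a fit without the dimmest genes (0.0356), it passed. With any 1 array left out the adjusted p of Mcm4 was 0.0686 to 0.151. Mcm7 stood at 10.52, 11.02 and 10.60 on the arrays labelled cKO, against 10.43, 10.36 and 10.07 on the controls, and Mcm3, Mcm5 and Mcm6 had changes of 0.43, 0.39 and 0.34. Mcm2, of the same hexamer, had a change of 0.13 (95% interval −0.21 to 0.47). Without cKO 2 the changes of Mcm2, Mcm3, Mcm4, Mcm6 and Mcm7 were −0.023, 0.28, 0.38, 0.23 and 0.27, and that of Mcm5 was 0.24.

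The origin licensing factors, which load MCM on DNA, had a median of 0.37, which was 0.23 without cKO 2 and 0.16 without control 3 and cKO 2. Orc6, a subunit of the origin recognition complex, stood at 8.93, 9.46 and 9.05 on the arrays labelled cKO, against 8.81, 8.72 and 8.48 on the controls (change 0.48, adjusted p = 0.116, and 0.32 without cKO 2). Cdc6, the loader of MCM, had the largest change of the S phase members, 0.70 ± 0.34 (SE, adjusted p = 0.254). Its levels were 8.05, 9.45 and 8.41 on the arrays labelled cKO, against 7.97, 7.82 and 8.01 on the controls. Most of that change came with cKO 2, and without it the change was 0.30 (adjusted p = 0.244). Orc1 and Cdt1 had changes of 0.26 and 0.23, and of 0.17 and 0.062 without cKO 2. Among the activators that turn loaded MCM into a working helicase, Mcm10, Gins2, Gins1 and Cdc45 had changes of 0.33, 0.30, 0.27 and 0.24. Without cKO 2 these were 0.28, 0.26, 0.077 and 0.11.

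At the replication fork the median change was 0.17 over 6 members, 0.046 without cKO 2 and −0.04 without control 3 and cKO 2. Pola1 and Pole, catalytic subunits of DNA polymerases, had changes of 0.47 and 0.40, with overlapping groups. Pcna, the sliding clamp, had a change of 0.26 (95% interval −0.10 to 0.61), and Prim1, which makes the RNA primer, had 0.083. The clamp loader genes Rfc3 and Rfc4 had changes of −0.063 and 0.013. Without cKO 2 the changes of Pola1, Pole, Pcna, Prim1, Rfc3 and Rfc4 were 0.31, 0.27, 0.11, −0.015, −0.095 and −0.15. Of the genes that supply nucleotides, Rrm1 and Rrm2, the subunits of ribonucleotide reductase, had changes of 0.52 (adjusted p = 0.129) and 0.53 (adjusted p = 0.365). Rrm1 levels were 10.38, 11.08 and 10.74 on the arrays labelled cKO, against 10.32, 10.27 and 10.06 on the controls, whereas for Rrm2, at 9.97, 11.33 and 10.42 against 10.06, 10.04 and 10.04, cKO 1 was below the controls. Rrm1 passed when cKO 1 was left out (change 0.69, adjusted p = 0.0409). Tyms, thymidylate synthase, and Ung, which removes uracil from DNA, had changes of 0.037 and 0.04. Without cKO 2 the changes of Rrm1, Rrm2, Tyms and Ung were 0.34, 0.15, −0.067 and 0.032.

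The E2F factors and E cyclins that open S phase had a median change of 0.29, which was −0.075 without cKO 2 and −0.08 without control 3 and cKO 2. E2f2 stood at 8.21, 10.21 and 8.44 on the arrays labelled cKO, against 9.19, 8.88 and 8.92 on the controls. E2F2 is an activating E2F that is also known from the maturation of red blood cells in mice. Its change was −0.043 over 6 arrays (adjusted p = 0.972), and without cKO 2 it was −0.67 and passed (adjusted p = 0.0262), while without control 3 as well it was −0.71 and did not (adjusted p = 0.0607). Ccne2 stood at 7.97, 9.75 and 8.97 on the arrays labelled cKO, against 8.82, 8.40 and 8.63 on the controls, and Ccne1 at 8.81, 10.01 and 9.39 against 9.17, 9.07 and 9.07. For both cyclins the highest and the lowest of the 6 arrays were arrays labelled cKO. The changes of Ccne1 and Ccne2 were 0.30 and 0.28, and −0.003 and −0.15 without cKO 2. E2f1, the other activating E2F of the list, was above every control, at 8.98, 9.52 and 8.96 against 8.82, 8.94 and 8.73, with a change of 0.32 (adjusted p = 0.278), and of 0.14 without cKO 2. The erythroid markers were at 10.96 on cKO 2, where these 4 genes were highest, and at 7.30 and 7.38 on cKO 1 and cKO 3, and their part in the result was not tested.

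**Figure D3:**
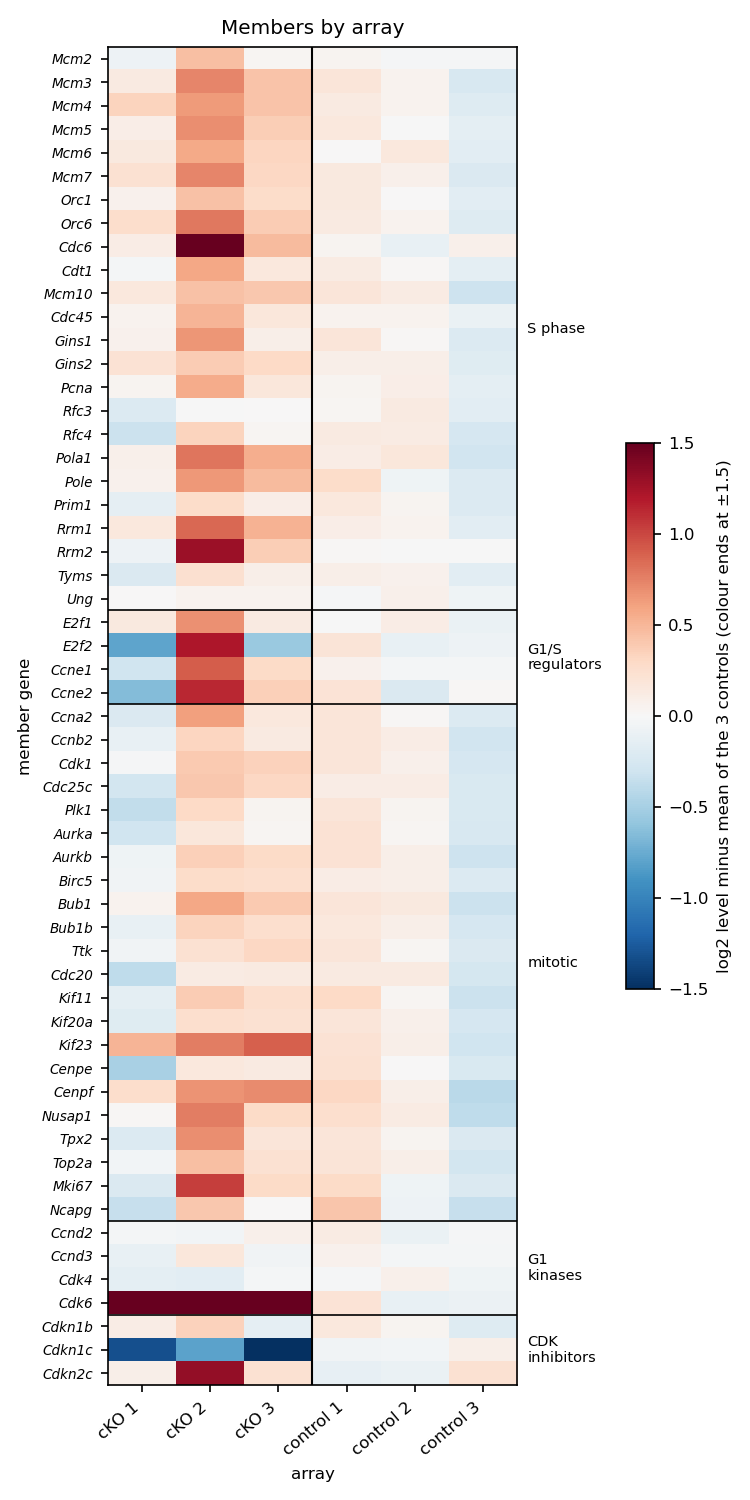
Log2 level of each member (rows, grouped by role) on each array (columns, arrays labelled cKO left of the line), as the difference from the mean of the 3 controls, with colours ending at ±1.5. The column of cKO 2 is the highest in 22 of 24 S phase rows and all 4 G1/S rows, control 3 is the lowest in 16 of 22 mitotic rows, and the Cdk6 and Cdkn1c rows split at the line between the groups.

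Among the mitotic genes only Kif23 passed. Of 22 mitotic members 18 had a change above 0 (81.8%, against 46.7% of all genes), with a median of 0.16 and a range of −0.063 to 0.72. At an unadjusted p under 0.05 in limma only Kif23 and Cenpf were higher and 0 were lower, where 11.5% of all genes were higher and 15.1% lower. Only Kif23 had non-overlapping groups, 4.55% of the members in this group, against 14.3% of all genes with every array labelled cKO higher. The median was 0.045 without cKO 2 and 0.045 without control 3, 0.32 without cKO 1 and 0.26 without control 1. Without both cKO 2 and control 3 it was −0.085, with 5 of 22 members above 0 and 16 below.

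Among the mitotic cyclins and their kinase, Ccna2, Ccnb2 and Cdk1 had changes of 0.18, 0.12 and 0.24, and Cdc25c, the phosphatase that activates CDK1, had 0.15. Without cKO 2 these were −0.032, 0.015, 0.17 and 0.018. The mitotic kinase genes Plk1, Aurka, Aurkb, Bub1 and Ttk had changes of −0.007, −0.037, 0.19, 0.34 and 0.16. Without cKO 2 they were −0.16, −0.14, 0.11, 0.22 and 0.13. Birc5, the survivin subunit that works with Aurora B, had 0.16, the checkpoint gene Bub1b had 0.16, and Cdc20, which activates the anaphase-promoting complex, had −0.043, and without cKO 2 these were 0.10, 0.068 and −0.13. Of the spindle and kinetochore genes besides Kif23, Cenpf came next. It encodes a kinetochore protein of late G2 and mitosis, and stood at 8.69, 9.10 and 9.14 on the arrays labelled cKO, against 8.74, 8.52 and 8.02 on the controls (change 0.55, adjusted p = 0.159, and 0.49 without cKO 2). Here cKO 1 lay below control 1. The motors Kif11 and Kif20a had 0.16 and 0.10, Cenpe had −0.063, and the spindle proteins Nusap1 and Tpx2 had 0.36 and 0.23. Without cKO 2 the changes of Kif11, Kif20a, Cenpe, Nusap1 and Tpx2 were 0.057, 0.028, −0.17, 0.15 and −0.01.

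Mki67, the gene of the Ki-67 protein used to stain dividing cells, stood at 10.54, 11.79 and 11.04 on the arrays labelled cKO, against 11.04, 10.69 and 10.54 on the controls. The level of cKO 2 was the highest of all 6 and that of cKO 1 tied with control 3 as the lowest. The change was 0.37 with a 95% interval of −0.39 to 1.13 (adjusted p = 0.524), and without cKO 2 it was 0.033. Top2a, the topoisomerase that untangles mitotic chromosomes, had a change of 0.21, and Ncapg, a condensin subunit, had 0.023, and without cKO 2 these were 0.095 and −0.17.

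Set side by side, the S phase and mitotic members were both highest on cKO 2, then on cKO 3, and lowest on control 3. Relative to each gene's control mean, the median S phase member stood at 0.07, 0.57 and 0.31 on cKO 1, 2 and 3, and at 0.12, 0.052 and −0.16 on controls 1, 2 and 3. The median mitotic member stood at −0.13, 0.39 and 0.25 on the arrays labelled cKO, and at 0.19, 0.08 and −0.26 on the controls. In both groups of members cKO 1 lay among the controls. The S phase median minus the mitotic median was 0.20, 0.18 and 0.055 on the arrays labelled cKO, against −0.067, −0.028 and 0.093 on the controls, so that the groups overlapped. The S phase median change exceeded the mitotic one by 0.15, and this difference lay between 0.079 (without cKO 1) and 0.22 (without control 3 and cKO 2) under the alternatives tried, with 0.091 without control 1. Over other genes of the same functions no such difference was seen: the median was 0.19 for 41 other S phase genes and 0.20 for 57 other mitotic genes, a difference of −0.01 that ran from −0.062 to 0.075 under the alternatives. Those medians were 0.087 and 0.085 without cKO 2, and 0.03 and −0.045 without control 3 and cKO 2. No p is given for these differences, since the members were chosen with earlier results of these data known. As means over the members in place of medians, the changes were 0.30 for S phase and 0.19 for mitotic members.

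**Figure D4:**
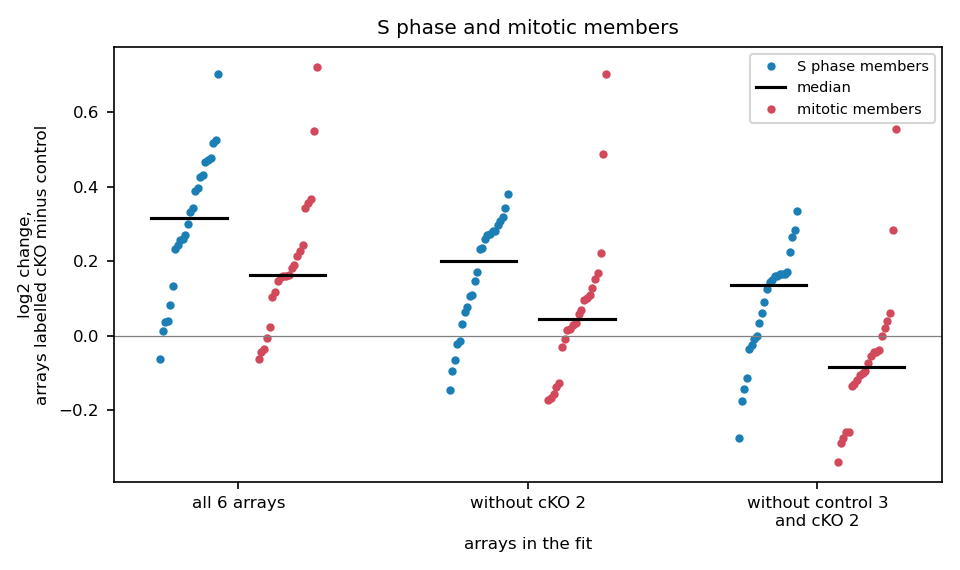
Log2 change (arrays labelled cKO minus control, vertical axis) of each S phase member (24 points, blue) and mitotic member (22 points, red), with the median as a black bar, in the fit of all 6 arrays, without cKO 2, and without control 3 and cKO 2. The S phase median goes with fewer arrays to 0.20 and 0.14, the mitotic median to 0.045 and −0.085.

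The mean levels of the groups by array were set beside the marker lists. The S phase members averaged 9.37, 9.91 and 9.59 on the arrays labelled cKO, against 9.43, 9.37 and 9.16 on the controls. The mitotic members averaged 9.50, 10.07 and 9.89 on the arrays labelled cKO, against 9.83, 9.69 and 9.35 on the controls. On cKO 2 the highest cell cycle levels went with the highest mean erythroid, hepatocyte, immune and endothelial markers. The immune mean was 9.52 on cKO 2, against 7.31 to 8.03 on the other arrays. For the 8 endothelial markers the mean was 8.47, against 7.03 to 8.01, and cKO 2 was highest for 7 of them. The array cKO 2 was highest for 9 of the 10 immune markers. The exception, Csf1r, stood at 7.84, 9.12 and 7.54 on the arrays labelled cKO, against 10.26, 10.30 and 10.60 on the controls. In limma Csf1r was called lower (change −2.22, adjusted p = 0.0148) and the hepatocyte marker Ambp higher (change 2.52, adjusted p = 0.0106). These were the only calls in the immune and hepatocyte lists, 10% and 9.09%, against 12.9% of all genes. On control 3 the lowest cell cycle levels went with hepatocyte markers at 11.27 and erythroid markers at 9.05, below cKO 2 alone, so these marker lists and the cell cycle levels did not keep 1 order over the arrays. The part of these cells in the cell cycle levels was not tested.

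**Figure D5:**
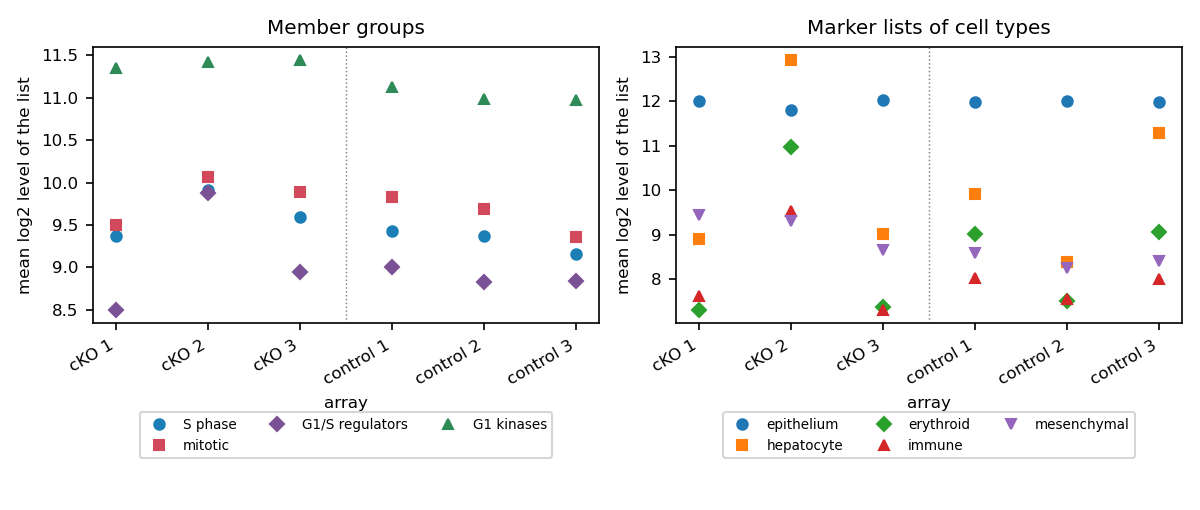
Mean log2 level per array (horizontal axis, arrays labelled cKO left of the dotted line) of 4 groups of members (left panel) and of 5 marker lists (right panel). The S phase mean peaks at 9.91 on cKO 2, where the erythroid mean is 10.96 and the hepatocyte mean 12.93, and the epithelial mean stays between 11.80 and 12.03.

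Other genes of the cycle were read from lists by textbook role. Of the 41 other S phase genes 2 rose and 0 fell (4.88% called, against 12.9% of all genes): Rfc1, the large subunit of the clamp loader, by 0.42 ± 0.075 (SE, adjusted p = 0.0149), and Lig1, the ligase that joins new DNA strands, by 0.54 ± 0.13 (SE, adjusted p = 0.0383). The small clamp loader subunits Rfc2 and Rfc5, named beside it after their values were seen, had changes of 0.03 and −0.007. Both calls were lost without control 3 and cKO 2 (adjusted p = 0.104 and 0.182). Each was also lost without cKO 3, control 2 or control 3 (adjusted p of 0.0551 to 0.0602 for Rfc1 and 0.116 to 0.124 for Lig1), and that of Lig1 without cKO 2 (0.0846). Of the 57 other mitotic genes 0 passed in limma. At an unadjusted p under 0.05 in limma 5 were higher and 0 lower, where 11.5% of all genes were higher and 15.1% lower.

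Of 20 other regulators of G1, 3 rose and 3 fell, which is 30%, against 12.9% of all genes called. The list was chosen with earlier results of these data known, so that share is not independent of the data. Besides Ccnd1, the rises were E2f5, a repressor of the E2F family, by 0.63 ± 0.077 (adjusted p = 0.00376), and Rbl1, which encodes the retinoblastoma relative p107, by 0.62 ± 0.095 (adjusted p = 0.00858). E2f5 stood at 10.84, 10.73 and 10.87 on the arrays labelled cKO, against 10.12, 10.25 and 10.18 on the controls. Rbl1 stood at 9.73, 9.88 and 9.67 on the arrays labelled cKO, against 9.21, 9.20 and 9.01 on the controls. All 3 rises passed with each array left out in turn and without both control 3 and cKO 2. Skp2, which marks p27 for breakdown, fell by 0.56 ± 0.096 (adjusted p = 0.0129), with levels of 9.32, 9.61 and 9.47 on the arrays labelled cKO, against 10.07, 9.95 and 10.07 on the controls. Its adjusted p was 0.0511 without control 1 and 0.055 without control 3. E2f8, an atypical repressor of the E2F family, fell by 0.97 ± 0.19 (adjusted p = 0.02) and stood at 10.26, 11.01 and 10.49 on the arrays labelled cKO, against 11.60, 11.52 and 11.54 on the controls. Without cKO 2 it fell by 1.18 (adjusted p = 0.00147), and the call was lost without cKO 3 or any 1 control (adjusted p = 0.07 to 0.0739). Mycn, a MYC family factor, fell by 0.46 ± 0.12 (adjusted p = 0.0489), a call lost with any 1 array left out (adjusted p = 0.0785 to 0.146). E2f8 and Mycn are named after their values were seen.

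Because Cdkn1a, a main target of p53, could not be read, other p53 targets were listed. Of 14 measured, 1 rose and 1 fell, 14.3% against 12.9% of all genes, a share near that of all genes. Phlda3, an inhibitor of AKT, rose by 0.45 ± 0.094 (adjusted p = 0.0253), and Sesn2, a stress sensor that restrains mTORC1, fell by 0.45 ± 0.11 (adjusted p = 0.0428). The list median was −0.07. The call of Sesn2 was lost with any 1 array left out (adjusted p = 0.066 to 0.131), and that of Phlda3 was lost with any 1 but cKO 1 left out (0.0504 to 0.0969).

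The promoters of the members were read for sequence classes that are known to time S phase and mitotic genes, and also for the letters of GATA factors. RefSeq windows of the 250 bases before a transcript start were found for 45 of the 57 members (49 windows, GRCm38.p6). Of these, 28 end at the start of the annotated gene and 21 reach or lie inside it, before another transcript's start. All were kept, and both strands were searched for exact letters. The E2F letters were TTTCCCGC and TTTGGCGC, and CCAAT stood for the factor NF-Y. Other forms of the E2F site were not searched, so the E2F counts below hold for these letters only and do not show that a window lacks such a site. The CHR element of mitotic genes was searched as TTTGAA and in the variant form that reads TTCGAA. The letters for GATA factors were AGATAA and the same with a closing G, which is AGATAG, and the forms that open with T instead, which are TGATAA on the one hand and TGATAG on the other. The letters of no class contain those of another. The window of Cdk6, which lies inside its annotated gene, held none of them. Aurkb, Ccna2, Ccnd2, Ccne2, Cdc25c, Cdkn1c, Gins1, Gins2, Kif20a, Mcm4, Pole and Tpx2 were the members without a window. E2F letters were in 5 of 21 S phase windows (23.8%) and in 0 of 17 mitotic windows, against 1.3% of 32851 windows of all genes, and the 5 were those of Cdc6, Mcm5, Mcm6, Mcm7 and Pola1. CHR letters were in 4 S phase windows (19%) and 8 mitotic windows (47.1%), against 17.1% of all, the mitotic ones being Bub1b, Ccnb2, Cdc20, Cdk1, Kif11, Mki67, Ncapg and Top2a. CCAAT was in 16 S phase windows (76.2%) and 15 mitotic windows (88.2%), against 33.8% of all. GATA letters were in 5 of the 49 member windows (10.2%), against 26.5% of all.

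An S phase and a mitotic window are printed as examples of the pair of classes, 5′ to 3′, with the matched letters in capitals. Both end at the start of the annotated gene. Mcm6 (chr1:128359706-128359955, minus strand) holds TTTGGCGC and ATTGG, the reverse complement of CCAAT, each in 2 copies. Cdk1 (chr10:69352913-69353162, minus strand) holds ATTGG in 3 copies and TTTGAA in 2. The Cdk1 window also holds tttcgcgc, left in small letters because this form, close to TTTCCCGC, was not searched. A match is a description of the letters and shows neither binding nor a cause of the values above.
Mcm6: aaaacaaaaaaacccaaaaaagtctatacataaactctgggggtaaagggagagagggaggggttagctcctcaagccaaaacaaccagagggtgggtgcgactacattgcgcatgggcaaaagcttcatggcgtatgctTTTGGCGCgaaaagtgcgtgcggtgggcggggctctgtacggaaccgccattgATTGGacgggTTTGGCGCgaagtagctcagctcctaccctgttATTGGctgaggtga
Cdk1: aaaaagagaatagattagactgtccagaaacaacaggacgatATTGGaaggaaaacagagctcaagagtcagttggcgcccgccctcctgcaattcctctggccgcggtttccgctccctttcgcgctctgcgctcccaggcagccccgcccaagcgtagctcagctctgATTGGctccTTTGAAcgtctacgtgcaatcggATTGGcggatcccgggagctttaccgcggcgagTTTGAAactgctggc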

How the data were processed

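RNA of isolated small intestinal epithelium (E18.5) was measured on Affymetrix Mouse Gene 1.0 arrays, 3 labelled cKO and 3 control by their source names. The values are the authors' deposited log2 levels of 35512 probe sets, with dChip named for the analysis per the series text; no source used here gives its version, background correction or normalization. The log2 base was read from the values (0 to 14.25, array medians 7.73 to 7.84), and centring is unknown. No detection calls were used, so the number of arrays and dim signal limit precision. Of the probe sets 21789 have 1 gene in the platform annotation, 1621 several and 12102 none; gene IDs of 21698 matched RefSeq (GRCm38.p6). Levels were compared with limma 3.58.1 in R 4.3.3 (lmFit, eBayes, two-sided, no covariate, no filter), checked on simulated data, with a threshold of 0.05 after Benjamini-Hochberg adjustment. Alternatives were quantile normalization, median centring, log2(level + 32), filters on dim genes, trended robust eBayes, array weights, a replicate block, the mean of probe sets, and arrays left out (each in turn, and control 3 with cKO 2). Promoter sequences are RefSeq's. The members and all lists were chosen with earlier results of these data known. All measured members are named, with up to 4 called genes of each further list by adjusted p, the targeted genes, and Xist and Eif2s3y. The labels give no batch.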

Additional observations from a re-analysis of the deposited data

How the results depend on the processing

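Cdk6 passed under every alternative, and Cdkn1c under every one except without control 3. Mcm4 also passed with quantile normalization, log2(level + 32), either filter on dim genes, trended robust eBayes or array weights. The higher count of members was 1 with the replicate block and without control 3 and cKO 2, and with 1 array left out it was 1 to 3, the lower count 0 to 2. Over all genes the higher and lower counts were 622 and 827 with the replicate block, 708 and 878 without control 3 and cKO 2, and 629 to 959 and 844 to 1322 with 1 array left out. Median centring moved the median of all genes to −0.067.

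The S phase median was 0.20 to 0.40 with 1 array left out, the mitotic median 0.045 to 0.32 and their difference 0.079 to 0.21. Without both arrays the difference was 0.22 and the mitotic median −0.085.

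Higher calls among other S phase genes were 1 with median centring, 5 and 6 under the milder and the stricter filter on dim genes, 5 with trended robust eBayes, 0 with the replicate block, 0 without control 3 and cKO 2, and 0 to 4 with 1 array left out. Among other mitotic genes they were 1 under the stricter filter, 1 with array weights and 0 to 3 with 1 array left out. Lower calls among other G1 regulators were 5 with either filter, 0 with the replicate block and 0 to 2 with 1 array left out. Among p53 targets higher calls were 0 under the stricter filter, with the replicate block or without both arrays, and 0 to 1 with 1 array left out, and lower calls were 0 with the replicate block and 0 to 2 with 1 array left out.

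The sign of a member that did not pass turned as follows, and the cause was not tested. Without control 3 and cKO 2 the changes were Mcm2 −0.035, Cdt1 −0.01, Gins1 −0.025, Rfc4 −0.28, Prim1 −0.12, Tyms −0.14, Ccne1 −0.02, Ccne2 −0.14, Ccna2 −0.14, Ccnb2 −0.13, Cdc25c −0.095, Aurkb −0.045, Bub1b −0.055, Kif11 −0.10, Kif20a −0.10, Nusap1 −0.04, Tpx2 −0.12, Top2a −0.045, Mki67 −0.075, Ncapg −0.34 and Cdkn1b −0.11. Median centring gave Rfc4 −0.04, Tyms −0.017, Ung −0.013 and Ncapg −0.03, quantile normalization Ung −0.004, Plk1 0.061 and Ncapg −0.023, and array weights Rfc4 −0.036. With 1 array left out the ranges were Mcm2 −0.023 to 0.24, Rfc3 −0.14 to 0.005, Rfc4 −0.15 to 0.18, Prim1 −0.017 to 0.19, Tyms −0.067 to 0.16, E2f2 −0.67 to 0.33, Ccne1 −0.003 to 0.60, Ccne2 −0.15 to 0.74, Ccna2 −0.032 to 0.38, Ccnb2 −0.028 to 0.23, Plk1 −0.16 to 0.17, Aurka −0.16 to 0.097, Cdc20 −0.18 to 0.13, Kif20a −0.025 to 0.24, Cenpe −0.18 to 0.15, Tpx2 −0.01 to 0.44, Ncapg −0.17 to 0.23 and Cdkn1b −0.013 to 0.23.

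Deviations from the group mean gave r of −0.015, −0.425 and −0.184 for arrays of the same number (pairs 1, 2 and 3). With 3 arrays in each group these deviations are tied to each other, so the values cannot decide whether arrays were paired. With the replicate block Cdk6 passed (change 1.64, adjusted p = 0.00792), as did Cdkn1c (0.0413), and Kif23 did not (0.117). No detection calls were used, so which levels lie above background is unknown.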

Other observations

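A second probe set of 3 members was measured and not used. For Pcna it gave levels of 11.89, 12.41 and 12.03 on the arrays labelled cKO, against 11.91, 11.96 and 11.72 on the controls, a change of 0.25 beside 0.26 for the set used. For Top2a the dimmer set gave 6.45, 6.29 and 6.46 on the arrays labelled cKO, against 6.31, 5.85 and 5.94 on the controls, a change of 0.37 beside 0.21. For Cdkn1b the dimmer set gave 7.20, 6.98 and 6.85 on the arrays labelled cKO, against 6.62, 6.77 and 6.53 on the controls, a change of 0.37 beside 0.11. The groups did not overlap for the dimmer set of Cdkn1b and overlapped for the other sets, and none of the 3 was tested.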
